A study of Mus musculus with 34 samples.

Results

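The major histocompatibility complex genes were followed through single ear-skin cells as a list of 10, drawn up by function with earlier results of these data known. Class I was represented by B2m, H2-K1, H2-D1, Tap1 and Tapbp, and class II by H2-Aa, H2-Ab1, H2-Eb1, Cd74 and Ciita. Of the 10 genes, 9 were among the 25853 genes listed in the 34 tables, 4 of class I and 5 of class II. H2-K1 had no row in any table and was not analysed here.

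Class I molecules carry peptides made inside the cell and are displayed by nearly every nucleated cell. A heavy chain pairs with beta-2-microglobulin in the endoplasmic reticulum, where the TAP transporter delivers peptides and tapasin helps to load them. Class II molecules carry peptides taken up from outside and are the mark of professional antigen-presenting cells such as dendritic cells, Langerhans cells, B cells and some macrophages. Their alpha and beta chains travel with the invariant chain Cd74, and the transactivator Ciita switches the whole group on. In skin, mast cells (MCs) are resident effector cells loaded with proteases.

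Sorted cells of 2 kinds were measured by mCEL-Seq2, a method that counts the 3′ ends of messenger RNAs by molecular identifier. MCs came from 7-week-old male mice: 3 WT animals (Mcpt5-cre+/-, Tln1+/+, R26LSL:YFP) with 904 cells in 12 libraries, and 3 Tln1ΔMC animals (Mcpt5-cre, Tln1 fl/fl, R26LSL:YFP) with 1573 cells in 18 libraries, 10 of them from Tln1ΔMC mouse 3. These mice were on an albino C57BL/6J background (Tyr c-2J) and untreated. All carried the Cre transgene, which is driven by the Mcpt5 promoter, so Tln1 was deleted in connective tissue MCs only where Cre was active, and the YFP gate selected cells that had seen Cre. MCs were sorted as CD45+ and YFP+ cells negative for a set of lineage markers that included CD11c, which is carried by many dendritic cells. Myh11GFP/+ mice on a C57BL/6J background, whose smooth muscle reporter marks vascular smooth muscle cells and pericytes, gave 330 CD45-GFP+ cells in 4 libraries. The number of Myh11GFP/+ mice was not given, so these libraries were used as 1 sample without a test.

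MC libraries held 58 to 97 cells and 156196 to 912499 transcripts outside predicted genes named Gm plus a digit, which took 5.42% to 66.8% of the transcripts of a library. Defining markers were present in the labelled cells. The 11 MC marker genes summed to 331.5 to 1115 per 10,000 transcripts in MC libraries and to 0.0551 to 0.265 in GFP+ libraries. In GFP+ libraries the 6 smooth muscle markers summed to 89.4 to 115.1 and the 7 pericyte markers to 131.2 to 139.6. Fibroblast markers (7 genes) summed to 149.7 to 349 there, so GFP+ cells were not smooth muscle cells and pericytes alone. The paper states that a small fraction of fibroblasts was sorted with them. In MC libraries fibroblast markers ran from 0.302 to 434.7, highest in library 1 of WT mouse 2. The targeted gene Tln1 stood at 4.51, 5.92 and 6.71 per 10,000 in the WT mice and at 5.57, 4.33 and 3.63 in the Tln1ΔMC mice. These groups overlapped, and since the position of the deleted part relative to the counted 3′ end was not given in the sources used here, Tln1 was no check of the labels. No 2 cells among the 2477 MCs and 330 GFP+ cells had identical values.

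All listed genes of the class I and class II region lay on chromosome 17 in the GRCm38 annotation, except B2m (chr2:122147686-122153083), Ciita (chr16:10480059-10528418) and the invariant chain gene. H2-Ab1 (chr17:34257689-34269419), H2-Aa (chr17:34282744-34287823, minus strand) and H2-Eb1 (chr17:34305867-34316674) were neighbours, Tap1 (chr17:34187553-34197225) lay just before them, Tapbp (chr17:33915899-33929292) further before them, and H2-D1 (chr17:35262730-35267499) behind them. Class I and class II genes are known to share an upstream arrangement in which an X2-type element precedes a Y box. It is shown here because the same arrangement precedes genes that behaved very differently in the values below. In each line the 120 bases before the RefSeq start are printed (GRCm38.p6), and capitals mark a TGANG and the ATTGG that follows it on the same strand. The first is B2m, chr2:122147567-122147686 on the plus strand, the second H2-Aa, chr17:34287824-34287943 on the minus strand, and the third H2-Eb1, chr17:34305747-34305866 on the plus strand.
B2m: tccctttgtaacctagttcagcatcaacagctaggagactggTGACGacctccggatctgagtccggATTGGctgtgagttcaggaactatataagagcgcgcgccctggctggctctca
H2-Aa: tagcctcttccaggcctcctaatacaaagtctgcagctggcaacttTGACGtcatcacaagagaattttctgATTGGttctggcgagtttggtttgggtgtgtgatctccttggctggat
H2-Eb1: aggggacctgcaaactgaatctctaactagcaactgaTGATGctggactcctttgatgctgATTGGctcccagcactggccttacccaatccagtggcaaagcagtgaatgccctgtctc

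TGANG and ATTGG were 20 bases apart in B2m, 21 in H2-Aa and 19 in H2-Eb1. With both strands searched and 15 to 25 bases allowed between them, the pair was found in the 250 bases before the start of 763 of 27025 genes (2.82%). ATTGG alone was found for 37.5% and TGANG alone for 86.9% of genes. RefSeq entries matched 7 of the 9 listed genes that were looked up, without H2-Ab1 and Ciita. The letters and the spacing were chosen after these sequences had been seen. The pair was present in B2m, H2-K1, H2-D1, H2-Aa and H2-Eb1 and was not found in these windows of Tap1 and Tapbp. A match of letters is a description and not a measured binding site.

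Class I transcripts were present in every MC library and at similar levels. B2m, the light chain shared by all class I molecules, ranged from 5.75 per 10,000 transcripts (library 12 of Tln1ΔMC mouse 2) to 12.9 (library 5 of Tln1ΔMC mouse 3) over 30 libraries, with a median of 9.91. H2-D1, a classical heavy chain, ranged from 3.10 to 9.06 with a median of 4.68. Tapbp, which encodes tapasin, ranged from 1.12 to 2.06 with a median of 1.38. Tap1, which encodes a subunit of the peptide transporter, was rare at a median of 0.121 and was at 0 in library 1 of WT mouse 3. The coefficient of variation over libraries was 0.195 for B2m, 0.229 for H2-D1 and 0.177 for Tapbp. The authors dropped ambiguously mapped reads, so the level of H2-D1, whose sequence is close to that of other class I heavy chains, is uncertain.

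GFP+ cells carried class I transcripts as well. Their B2m level was 7.55 to 9.54 per 10,000 in 4 libraries, within the range of the MC libraries. H2-D1 was lower, at 2.10 to 3.02, and no GFP+ library reached the lowest MC library. This separation was lost with Gm genes in the total, where H2-D1 was at 1.79 to 2.25 in GFP+ libraries and at 1.21 to 4.92 in MC libraries. Tapbp was at 0.767 to 1.15 and Tap1 at 0.181 to 0.319, both overlapping the MC libraries. Of 8643 genes with a mean level above 0.1 per 10,000, 10.3% lay below every MC library in all 4 GFP+ libraries and 9.24% above.

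**Figure D1:**
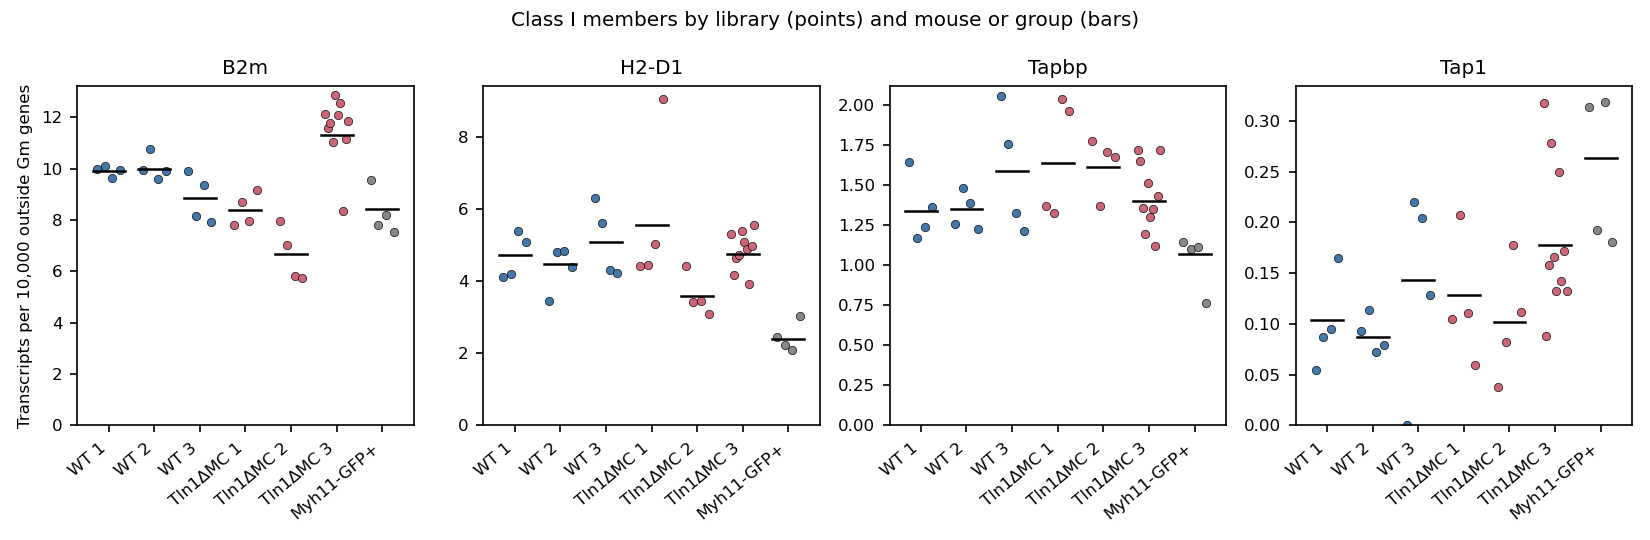
Level of B2m, H2-D1, Tapbp and Tap1 (vertical axes, transcripts per 10,000 outside Gm genes, each from 0) in each library (points) of the 6 MC mice and of Myh11-GFP+ cells, with bars for the level over all cells of a mouse or group. B2m lies between 5.75 and 12.9 in all 30 MC libraries, and H2-D1 reaches 9.06 in 1 library of Tln1ΔMC mouse 1.

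Most MCs showed at least 1 class I molecule. At the depth as sequenced (a median of 3301 transcripts per MC), B2m was found in 75.3% of 2477 MCs, H2-D1 in 66.5%, Tapbp in 36.3% and Tap1 in 5.13%, and at least 1 of the 4 in 86.6% (95% exact binomial interval 85.1% to 87.9%, counting error only). After each cell was thinned to 500 UMIs, which left 2406 MCs, the share with any class I UMI was 50.0% over all MCs and 28.05% to 62.5% by library. Among 318 GFP+ cells thinned in the same way it was 38.4% (95% exact interval 32.99% to 43.96%), with 28.3% for B2m and 10.1% for H2-D1. No cell type in the series should lack class I, so unused barcodes served as the background and are described below.

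Class II transcripts had another distribution. The sum of H2-Aa, H2-Ab1, H2-Eb1 and Cd74 ranged from 0.181 per 10,000 in library 1 of WT mouse 3 to 102.9 in library 3 of WT mouse 2, with a median of 1.94 over 30 MC libraries. H2-Aa, the alpha chain of the I-A molecule, had a median of 0.434 and a highest level of 34.4. H2-Ab1, its beta chain, had a median of 0.584 and a highest level of 22.6, and H2-Eb1, the beta chain of I-E, a median of 0.544 and a highest level of 22.6. Cd74 had the lowest median of the 4 genes, 0.180, and a highest level of 23.2. All 4 highest levels came from library 3 of WT mouse 2. That library held 4.21% of all MC transcripts outside Gm genes.

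Coefficients of variation over the 30 libraries were 2.52 for H2-Aa, 2.11 for H2-Ab1, 2.11 for H2-Eb1 and 2.23 for Cd74. Over the same libraries the 3 H2 genes ranked alike, with a Spearman rho of 0.865 between H2-Aa and H2-Ab1 and of 0.913 between H2-Ab1 and H2-Eb1. Between B2m and H2-Aa, H2-Ab1, H2-Eb1 or Cd74 rho was -0.0879 to -0.0407, between B2m and Ciita it was -0.373, and between B2m and H2-D1 it was 0.415. B2m also ranked against the share of Gm transcripts, with a rho of -0.69. These are descriptions across libraries that share mice, plates and depth.

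Ciita was almost absent. It gave 35 transcripts in 2477 MCs, from 2 in WT mouse 2 to 14 in Tln1ΔMC mouse 3, and 11 of 30 MC libraries had none. In GFP+ cells a single Ciita transcript was found among 330 cells. WT mouse 2, which had the most transcripts of the 4 other class II genes (5129), had the fewest of Ciita.

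**Figure D2:**
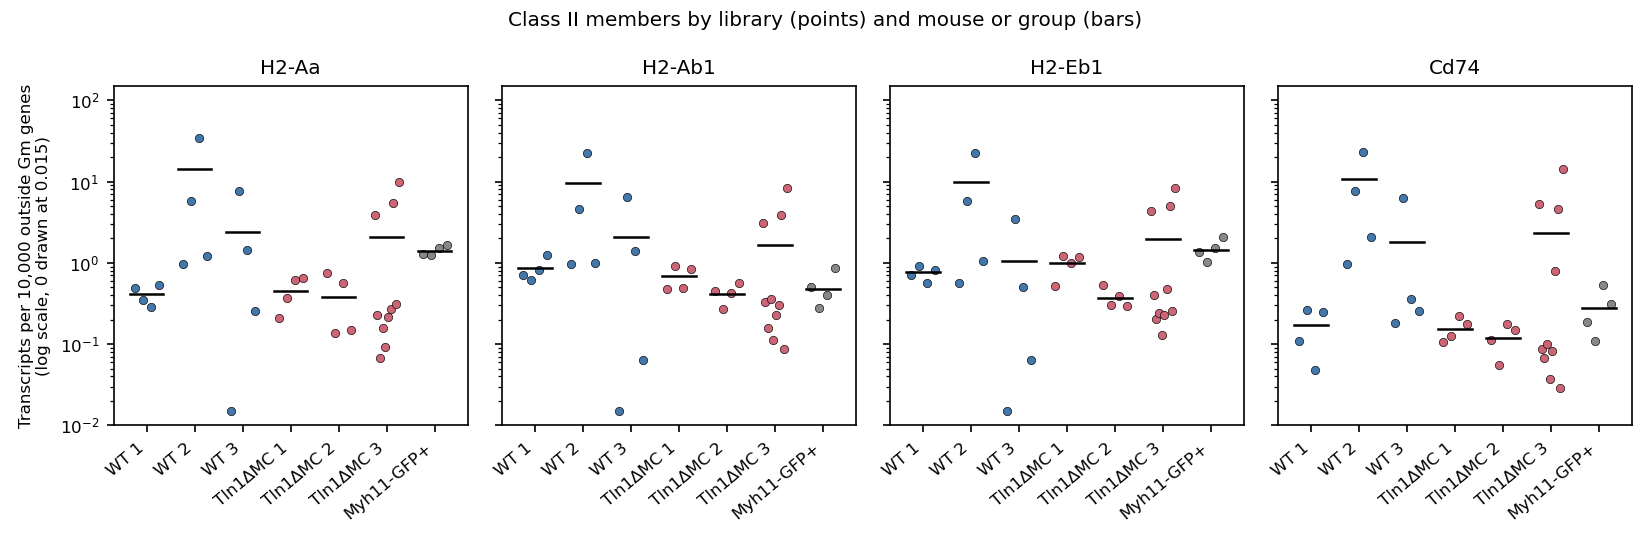
Level of H2-Aa, H2-Ab1, H2-Eb1 and Cd74 (vertical axis, transcripts per 10,000 outside Gm genes, log scale, with values of 0 drawn at 0.015) in each library (points), with bars for the level over all cells of a mouse or group. Libraries of 1 mouse differ widely: H2-Aa runs from 0.979 to 34.4 in WT mouse 2 and from 0.0679 to 9.81 in Tln1ΔMC mouse 3.

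A handful of cells held most class II transcripts. For each gene, the 25 MCs (1% of cells) with the most transcripts held 10.7% of B2m, 11.2% of H2-D1 and 12.4% of Tapbp, but 74.3% of H2-Aa, 71.5% of H2-Ab1, 60.2% of H2-Eb1 and 89.5% of Cd74. The cells that led for B2m held 7.95% of all transcripts outside Gm genes and those that led for Cd74 held 6.88%. Both sets included the same very deep cell, in library 8 of Tln1ΔMC mouse 3, with 399798 transcripts outside Gm genes. These shares therefore do not compare the depth of the other leading cells. In rare genes a few cells always hold a large share, as with Tap1 at 29.2%. Class II sums were not rare, with 10398 transcripts against 16200 of class I. The plot of cumulative shares shows the class II curves far to the left of the class I curves.

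**Figure D3:**
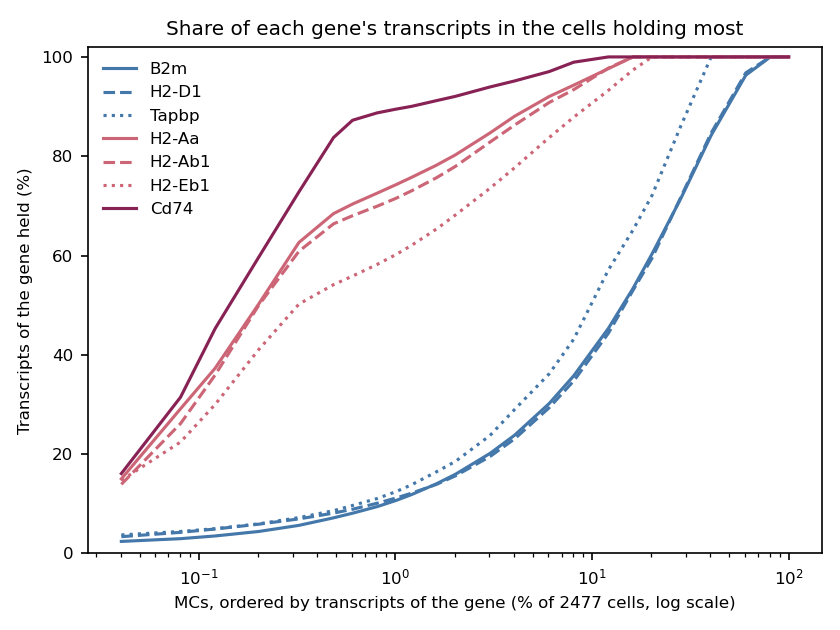
Share of a gene's transcripts (vertical axis, %) held by the MCs with the most of them (horizontal axis, % of 2477 cells, log scale). The leading 1% of cells hold 10.7% of B2m and 89.5% of Cd74.

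Cells with at least 50 class II transcripts were taken apart for description, a limit chosen after the values were seen. They numbered 15, and the 3 cells just inside the limit had 92.3, 61.2 and 50.1 transcripts and the 3 just outside 41.1, 35 and 33.1. Together these 15 cells held 7320 of 10398 class II transcripts (70.4%) with 6.33% of all MC transcripts. Of them, 9 came from WT mouse 2, 5 of these from its library 3, 1 from WT mouse 3 and 5 from Tln1ΔMC mouse 3. None came from WT mouse 1, Tln1ΔMC mouse 1 or Tln1ΔMC mouse 2. Their class II level was 36.1 to 1218 per 10,000. Ciita was at 7 in the cell with 1538 class II transcripts and at 2 in that with 1085. It was at 1 in each of the cells with 1219, 362.4 and 260.2, and was not found in the rest of the 15.

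These cells were of more than 1 kind. The cell with the most, in library 8 of Tln1ΔMC mouse 3, held 1538 class II transcripts in a total of 431991, beside 12348 transcripts of 7 keratinocyte markers and 164.2 of Cd207, the langerin gene of Langerhans cells. A second cell, barcode 7 in library 3 of WT mouse 2, held 726.3 class II transcripts beside 2456 of keratinocyte markers and 35.1 of Cd207. Cd207 was found in no other of the 15 cells. Barcode 89 in library 2 of WT mouse 3 held 362.4 class II transcripts beside 3393 of fibroblast markers. Barcode 14 in library 3 of WT mouse 2 held 1219 class II transcripts in a total of only 11138, with 8.00 keratinocyte transcripts and none of fibroblast markers.

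MC markers were low but not absent in the 15 cells. Cpa3, the MC carboxypeptidase, stood below the median of the cell's own library in 15 of 15, at 4.76 per 10,000 in the deepest cell against 106.1 in its library. The nearest to its library was barcode 50 in library 7 of Tln1ΔMC mouse 3, with 110.4 against 124.3. The MC marker sum was 28.98 to 644.1 per 10,000 with a median of 203.3, against 567.4 to 1115 in the other cells by library.

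Markers of other antigen-presenting cells varied. Of 11 macrophage markers with a row, 11 were found in at least 1 of the 15 cells, and the sum ran from 0 to 181.2 per 10,000 with a median of 13, against 0.294 to 20.1 in the other MCs by library. Csf1r, the receptor of a macrophage growth factor, was found in 11 of the 15 cells and in 2.52% of other MCs. Of 8 dendritic cell markers, 7 were found and Clec9a was at 0. Flt3, the receptor of a dendritic cell growth factor, was found in 4 of the 15 cells and in none of 2462 others. Cd209a was found in 7 and Ccr7 in 1. B cell markers reached 2.45 per 10,000, with Cd79b found in 3 cells, Ms4a1 in 1 and Cd79a at 0. T and NK cell markers reached 3.85, with Cd8a at 0. Cd4 was found in 4 of the 15 cells, Cd3d and Trdc in 3 each, Cd3g in 2, and Cd3e and Nkg7 in 1 each. Detection in these cells was not thinned for depth. The 15 cells had a median of 8168.5 transcripts outside Gm genes, against 3293 in the other MCs outside library 3 of WT mouse 2. The part of these cell types in the class II levels was not tested.

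Other genes stood out in the same cells. Genes found in at least 10 of the 15 were ranked by the ratio of their mean level to that of the other MCs. To keep very low means from leading, 0.05 per 10,000 was added to both means. Beyond the class II genes that chose the cells, the highest ratios were those of Mgl2, Cd83, Lyz1, H2-DMa, Lsp1, Cd86, Cd52, Il1b and Wfdc17. Cd83, a surface protein of mature antigen-presenting cells, averaged 8.60 per 10,000 against 0.103 and was found in 13 of 15. Cd86, a costimulatory ligand for T cells, averaged 2.54 against 0.0114. H2-DMa and H2-DMb1, the chains of the editor that loads class II peptides, averaged 3.6 against 0.0282 and 6.61 against 0.153. Ctss, the protease that trims the invariant chain, averaged 7.15 against 0.304. The cells were chosen on class II values, so no test applies.

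Class I was not confined to these cells. B2m was above the level of the cell's library in 11 of the 15, up to 58.7 per 10,000 in barcode 82 of library 3 of WT mouse 2, whose library stood at 9.60. In the deepest cell it was 6.03 against 8.36. B2m over all 15 was 8.43 per 10,000 and 10.2 in the MCs outside library 3 of WT mouse 2.

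Composition of the class II sum differed between barcodes. In the 15 cells Cd74 made up 31.5% of the sum, and 18.9% to 50.9% in single cells. In the other cells of library 3 of WT mouse 2 it was 9.32%, in all other MCs 12.1% and in GFP+ cells 7.78%. In GFP+ cells H2-Aa made up 39.1% and H2-Eb1 39.9% of the sum.

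Unused barcodes gave the background. Each library was given 1 of 2 sets of 96 barcodes, and the tables list the other 96 too. In the set not given, 9 barcodes of MC libraries and 8 of GFP+ libraries also passed 1000 transcripts. They were kept as cells and left out of the 2871 and 376 unused barcodes. Per cell of the set in use, and without the 15 cells, B2m averaged 1.29 to 7.63 transcripts in the 30 MC libraries, against 0.0208 to 0.221 per unused barcode, and cells were above unused barcodes in 30 of 30. H2-D1 averaged 0.926 to 3.21 per cell and 0.0104 to 0.126 per unused barcode. Class II sums averaged 0.0517 to 16.9 per cell and 0.0417 to 0.886 per unused barcode, and cells were at or below the unused barcodes in 11 of 30 MC libraries. That count depends on which set was in use, since unused barcodes here include the numbers of the 15 cells. In WT mouse 2, WT mouse 3 and Tln1ΔMC mouse 2 the unused barcodes averaged 0.0729 to 0.188 with set 1 in use. With set 2 in use they averaged 0.459 to 0.886. With those numbers and library 3 of WT mouse 2 left out, cells were above unused barcodes in 24 of 29 libraries. In the 4 GFP+ libraries the cells held 1.24 to 1.73 class II transcripts each and the unused barcodes 1.27 to 1.57, with cells above in 2 of 4. B2m in the same 4 libraries was 2.36 to 5.02 per cell and 0.0638 to 0.191 per unused barcode.

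Class II sums per barcode were thus of like size in GFP+ cells and in barcodes of the set not in use. The composition was also close: H2-Aa, H2-Ab1, H2-Eb1 and Cd74 made up 39.1%, 13.2%, 39.9% and 7.78% of the sum in GFP+ cells and 38.8%, 14.7%, 42.0% and 4.48% in their unused barcodes. A median GFP+ cell had 3915 transcripts outside Gm genes and a median unused barcode 95.02. At the depth as sequenced 68.2% of GFP+ cells and 65.7% of their unused barcodes held a class II transcript, and after thinning to 500 UMIs the share was 21.4% of GFP+ cells. Over all 4 libraries the mean was 1.56 per GFP+ cell and 1.43 per unused barcode.

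**Figure D4:**
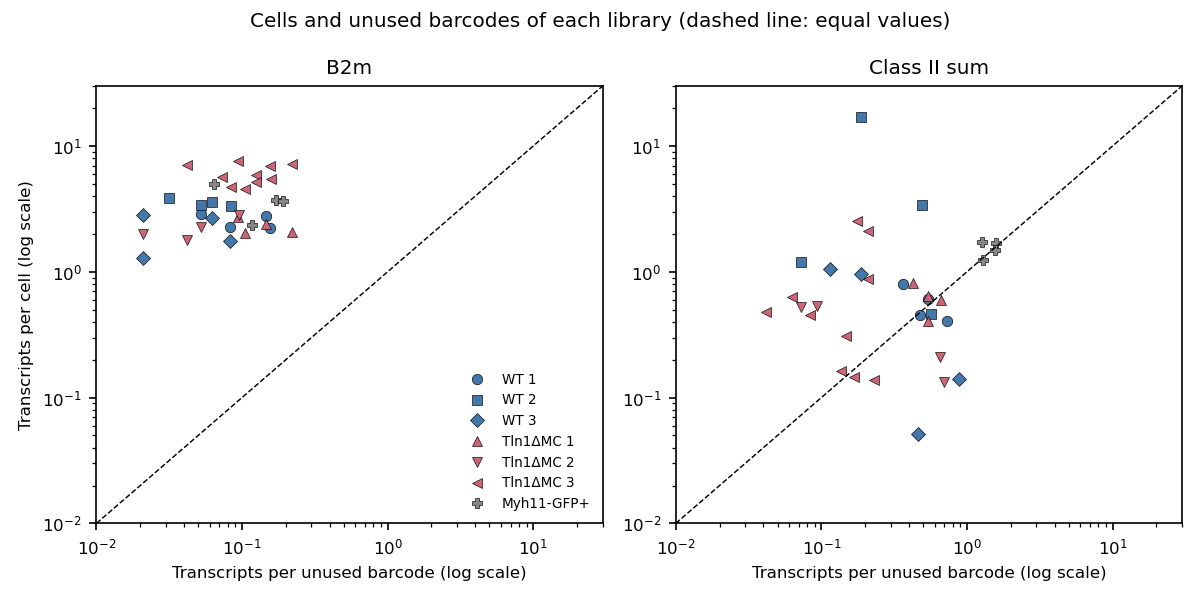
Mean transcripts per cell (vertical axis, log scale) against the mean per unused barcode (horizontal axis, log scale) of the same library for B2m and for the class II sum, without the 15 cells of at least 50 class II transcripts; symbols give the mouse or group and the dashed line marks equal values. All libraries lie far above the line for B2m, while 11 of 30 MC libraries and 2 of 4 GFP+ libraries lie at or below it for class II. Unused barcodes with the numbers of the 15 cells are included, and the class II count depends on them.

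The same barcode number carried class II transcripts in other libraries. Number 14, which held 1219 in library 3 of WT mouse 2, held 15.0 to 33.1 in each of the 11 other libraries of WT mouse 2, WT mouse 3 and Tln1ΔMC mouse 2. Other barcode numbers of those libraries, without the numbers of the 15 cells, averaged 0.264. In the 10 libraries of Tln1ΔMC mouse 3 number 14 averaged 0.300, and in the 8 of WT mouse 1 and Tln1ΔMC mouse 1 it averaged 0.125. In the 4 GFP+ libraries it held 2.00 to 4.00, where unused barcodes averaged 1.27 to 1.57. In the 11 libraries the number was high with and without a cell: it averaged 23.02 where number 14 was in use and 25.5 in the 6 libraries where no cell had it.

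Numbers of other rich cells were also high in their own group of libraries. The number of the cell with 1538 transcripts, in library 8 of Tln1ΔMC mouse 3, held 6.00 to 18 in the 9 other libraries of that mouse and averaged 0.182 in WT mouse 2, WT mouse 3 and Tln1ΔMC mouse 2. The number of the cell with 1085, in library 10 of the same mouse, held 11 to 24 in the 9 others. For 15 of 15 cells the same number averaged more than other numbers within the cell's own group of libraries, but the margin was small for the poorer ones, with 0.556 against 0.338 for number 50. Means with and without use of the number differed more than for number 14 in some of them, with 15.0 and 9.20 for the cell with 1538 transcripts, 18.3 and 13.6 for that with 1085, 4.75 and 1.80 for that with 260.2, and 0.400 and 2.00 for number 75. The mean was higher in use for 8 of the 15 and lower for 7. The number of the cell with 260.2 transcripts was an exception to the grouping, since it averaged 3.11 in its own group and 4.00 in WT mouse 1 and Tln1ΔMC mouse 1. Relative to the source, the mean in the other libraries was 0.766% for the cell with 1538 transcripts, 2.00% for number 14 and 1.44% for the cell with 1085.

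**Figure D5:**
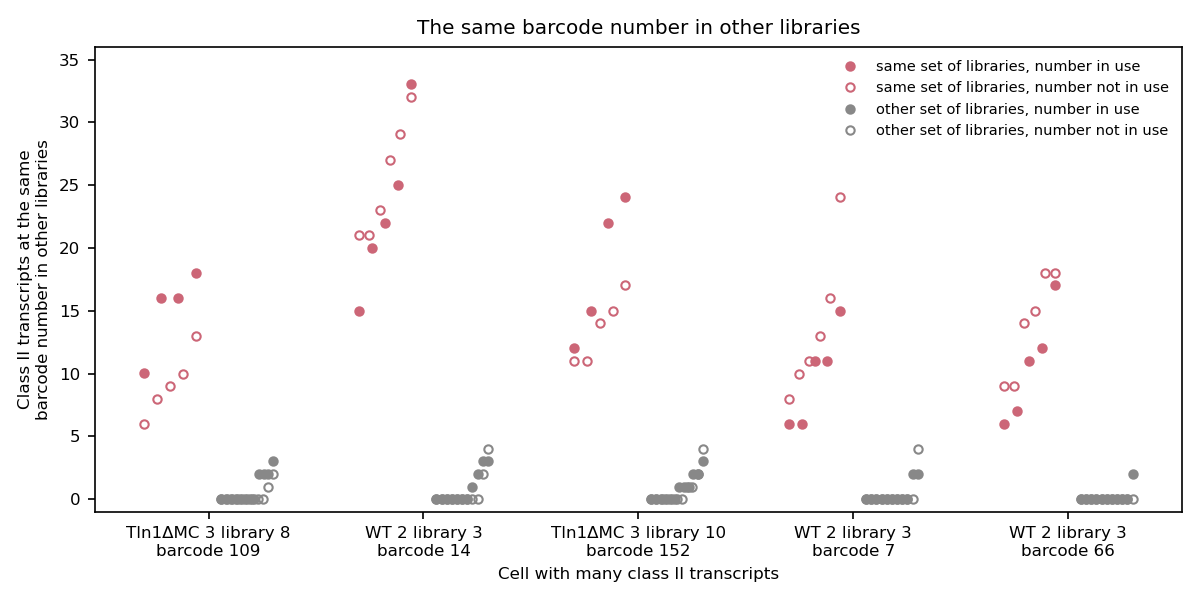
Class II transcripts (vertical axis) found at the same barcode number in other libraries, for the 5 cells with the most class II transcripts (horizontal axis). Red points are libraries of the cell's own group and grey points all others, and filled points are libraries in which the number was in use. For number 14 the red points run from 15.0 to 33.1, whether the number was in use or not.

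These groups of libraries were set after the values were seen. Unused barcodes had alike profiles over 679 genes in WT mouse 1 and Tln1ΔMC mouse 1 (mean Pearson r 0.661), and in WT mouse 2, WT mouse 3, Tln1ΔMC mouse 2 and Tln1ΔMC mouse 3 (0.724 to 0.746 between mice), against 0.402 to 0.431 between these 2 groups. Tln1ΔMC mouse 3 was taken as a group of its own because the numbers of its richest cells were not high in other MC libraries. Cd74 made up 9.32% of the class II transcripts at number 14 in the other libraries and 30.0% in the cell of library 3 of WT mouse 2. Class II at unused barcodes was not limited to libraries grouped with a rich cell. WT mouse 1 and Tln1ΔMC mouse 1 had no rich cell and held 0.365 to 0.729 class II transcripts per unused barcode, and GFP+ libraries, also without one, held 1.27 to 1.57. In WT mouse 1 and Tln1ΔMC mouse 1 the 5 leading numbers held 31.96% of the class II transcripts, and 0 of the 5 was the number of a rich cell. A cause was not tested.

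Class II in the remaining MCs was low. Besides the 15 cells, the other 76 cells of library 3 of WT mouse 2 held 1288 class II transcripts (12.4% of the MC sum), cells elsewhere with the barcode number of 1 of the 15 held 579.3 (5.57%), and the other 2195 cells held 1210 (11.6%), or 0.551 per cell. In these 2195 cells 24.1% had any class II transcript. Their level was 1.46 per 10,000, against 42.3 in the 76 cells. In 24 of 29 libraries they still held more per cell than unused barcodes without the 15 numbers, with a median over libraries of 0.395 against 0.0341. They held less in libraries 13 and 15 of WT mouse 1, at 0.433 against 0.472 and 0.395 against 0.686. The same was seen in libraries 1 and 3 of Tln1ΔMC mouse 1, at 0.407 against 0.540 and 0.594 against 0.686. Library 4 of WT mouse 3 was also lower, at 0.0313 against 0.0796.

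Library 3 of WT mouse 2 stood apart because almost all of its cells were involved. All 76 other cells had a class II transcript, with a median of 15.0, and 5% of them had under 7.75. The 38 deeper cells averaged 20.99 and the 38 shallower ones 12.9, a smaller ratio than for B2m at 5.82 and 1.34. Keratinocyte markers were also found in 100% of these cells, at 22.4 per 10,000, against 8.61% of cells and 3.68 per 10,000 in the other libraries of this mouse. Macrophage markers were found in 77.6% against 36.8%, Langerhans cell markers in 22.4% against 2.39%, and MC markers summed to 806.0 against 899.1. Fibroblast markers went the other way, with 14.5% of cells and 2.83 per 10,000 against 37.8% and 130.3. Neutrophil and monocyte markers were found in 2.63% against 11.0%. Over all MC libraries macrophage markers were highest (20.1 per 10,000) in library 1 of WT mouse 3, where the class II sum was lowest. The 3 libraries next in class II per cell were library 2 of WT mouse 2 with 3.40, library 10 of Tln1ΔMC mouse 3 with 2.40 and library 8 of Tln1ΔMC mouse 3 with 2.01. These values are without the 15 cells and their numbers. Each of these 3 libraries also held at least 1 of the 15 cells, as did 8 of 30 MC libraries in all. Other libraries with such a cell were lower. Libraries 1 and 7 of Tln1ΔMC mouse 3 averaged 0.884 and 0.242 per cell. Library 2 of WT mouse 3 averaged 0.603 and library 4 of WT mouse 2 averaged 0.420. The median over libraries was 0.395.

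By a level limit, 211 of 2477 MCs (8.52%) had at least 10 class II transcripts per 10,000 and at least 3 UMIs. They were a range and not a cell type, with 48 MCs close to the limit, within 25% of it. Library 3 of WT mouse 2 gave 80 of them out of its 81 cells, and the share outside that library was 5.47% of 2396. Among GFP+ cells the share was 33 of 330 (10.0%), and their class II per barcode was of like size to that of unused barcodes.

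Between genotypes the class I genes did not separate. By mouse, the B2m level per 10,000 was 9.92, 10.0 and 8.86 (WT 1 to 3) and 8.40, 6.67 and 11.3 (Tln1ΔMC 1 to 3). WT mice lay inside the wider range of the Tln1ΔMC mice, and the means were 9.59 ± 0.636 and 8.80 ± 2.35 (SD, n = 3 each, exact permutation p = 0.6, two-sided). The fitted log2 difference of B2m, Tln1ΔMC minus WT, was -0.12 ± 0.21 (SE, limma adjusted p = 0.952). H2-D1 was 4.72, 4.47 and 5.09 in WT and 5.57, 3.58 and 4.76 in Tln1ΔMC, a log2 difference of -0.03 ± 0.20 (limma adjusted p = 0.991). For Tapbp the log2 difference was 0.16 ± 0.19 and for Tap1 0.29 ± 0.38, and neither passed the test. Tln1ΔMC mouse 3, with the highest B2m, also had the smallest share of Gm transcripts, 14.2% against 36.7% to 58.01% in the other 5 mice, and the part of this in the level was not tested.

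Class II genes differed far more between mice than between genotypes. The WT mice had H2-Aa levels of 0.416, 14.3 and 2.43 per 10,000, and the Tln1ΔMC mice had 0.449, 0.382 and 2.07. Cd74 was 0.173, 10.8 and 1.82 in WT and 0.154, 0.119 and 2.35 in Tln1ΔMC. In both genes WT mouse 2 stood alone and the other mice of the 2 genotypes overlapped. Log2 differences, Tln1ΔMC minus WT, were -1.74 ± 1.09 for H2-Aa, -1.68 ± 0.78 for H2-Ab1, -1.10 ± 0.88 for H2-Eb1 and -2.03 ± 1.41 for Cd74 (SE, limma adjusted p from 0.838 to 0.875). Without WT mouse 2 they were -0.45, -0.72, 0.06 and -0.61. Without library 3 of that mouse they were -0.96, -0.99, -0.47 and -1.53. Ciita had too few transcripts to be tested.

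None of the 8 genes tested was called at an adjusted p of 0.05, as was true of 0 of 8601 genes (0%). At an unadjusted p of 0.05, 0 of the 8 and 503 of all genes (5.85%) passed in limma. The 3 mice of one genotype lay wholly above those of the other in 0 of the 8 and in 1002 of 8601 genes (11.6%). With 3 mice against 3, the smallest p of the exact permutation test is 0.1, and the values for the 9 genes were 0.2 to 0.9. The median log2 difference was 0.07 over the 4 class I genes and -1.71 over the 4 class II genes, against -0.00032 over all genes tested. The class II median rests on WT mouse 2.

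The abundant partner genes of class I assembly were found in every MC library. Of 12 genes of the class I pathway 9 were tested between genotypes and none was called, with a median log2 difference of 0.02. The 4 highest were Calr and Canx, chaperones that hold the heavy chain, Tapbpl, a relative of tapasin, and Pdia3, a disulfide isomerase of the loading complex. Their medians over MC libraries were 1.98, 1.59, 1.27 and 1.15 per 10,000, and those over GFP+ libraries 2.10, 1.83, 2.16 and 1.38. Psmb8, a subunit of the immunoproteasome that cuts peptides for class I, was at 0.425 in MCs and at 0.189 in GFP+ cells, with overlapping ranges. Nlrc5, the class I transactivator, was at 0 in 20 of 30 MC libraries, and Psme2, a proteasome activator subunit, in 19.

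Nonclassical class I genes (class Ib) were led by H2-T23, which encodes Qa-1, a ligand of NK cell receptors. H2-T23 ranged from 1.63 to 5.29 per 10,000 in MC libraries, with a median of 3.42, and from 1.01 to 1.31 in GFP+ libraries, below every MC library. With Gm genes in the total these ranges overlapped. The next were H2-Q4, H2-T10 and H2-Q6, with MC medians of 0.277, 0.224 and 0.155, and with GFP+ libraries overlapping them. Of 10 genes on the list 8 had a row, 4 were tested and none was called.

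Genes of the class II pathway were low in most MCs. Of 15 on the list, 14 had a row and 7 were tested, with none called and a median log2 difference of -0.91. The 4 highest means belonged to Ctss, H2-DMb1, Rfxap, a subunit of the RFX complex that binds class II promoters, and Ifi30, a thiol reductase of antigen processing, with MC medians of 0.309, 0.195, 0.134 and 0.0503 per 10,000. Ifi30 alone of this list had an unadjusted limma p under 0.05, at 0.0375 (log2 difference -1.86 ± 0.77, adjusted p = 0.801), with 0.0578, 0.401 and 0.372 in WT and 0.0641, 0.0170 and 0.0974 in Tln1ΔMC mice. H2-Oa and H2-Ob, chains of the inhibitor of the class II editor, were at 0 in 28 and 22 of 30 MC libraries.

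Interferon-response genes were described because interferons are known to raise both classes. Of 24 genes 21 were tested between genotypes and none was called, with a median log2 difference of 0.09. In 1 of the 21 the mice of the genotypes did not overlap, against 11.6% of all genes. This was Ifnar1, a chain of the type I interferon receptor, at 0.301, 0.323 and 0.372 per 10,000 in WT and 0.397, 0.501 and 0.557 in Tln1ΔMC (log2 difference 0.56 ± 0.24, limma adjusted p = 0.801). The 4 highest in MCs were Ifnar2, Jak1, Ifngr2 and Jak2, at medians of 5.44, 3.92, 2.33 and 1.34. Of the 24 genes, 5 lay above and 2 below every MC library in all GFP+ libraries, against 9.24% and 10.3% of all genes. With Gm genes in the total 8 lay above and 1 below, against 10.4% and 6.21% of all genes. Ifnar2 and Jak2 were lower in every GFP+ library than in any MC library, at 0.770 to 1.21 and 0.398 to 0.542, but Jak2 overlapped with Gm genes in the total. By contrast Irf1, a transcription factor induced by interferon, was at 5.05 to 7.06 in GFP+ libraries and at 0.0605 to 1.27 in MC libraries. Gbp2, Gbp3, Iigp1 and Ifi47, which encode interferon-induced GTPases, also lay above every MC library in GFP+ cells, with Iigp1 at 1.38 to 1.94 against 0 to 0.303. MCs and GFP+ cells came from different mice, so cell type and animal cannot be told apart.

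Genes outside these lists that followed the class I sum most closely over the 30 MC libraries were Mbd6, Tubb5, AI467606, Trappc3 and Efhd2, with Spearman rho of 0.793, 0.786, 0.781, 0.758 and 0.751 among 6084 genes compared. For the class II sum they were Pmaip1, Btg2, Clic4, Pde4b and Nmd3, with 0.691, 0.668, 0.665, 0.661 and 0.628. Of these Btg2, Pde4b and Clic4 were also among the genes that stood high in the 15 class II-rich cells. Those 15 cells were part of the library levels and held 70.4% of the class II transcripts of MCs. The overlap is therefore not an independent observation. The rho values carry no test.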

How the data were processed

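The authors sorted single cells, prepared mCEL-Seq2 libraries, aligned reads with BWA (0.6.2-r126, after bcl2fastq 2.17.1.14; per the labels' processing notes, mm10), and discarded reads mapping to several places. The deposited values (unit other: transcript counts corrected by the authors for UMI collisions, neither scaled nor logged) were turned back to whole UMIs of 4096 possible, and transcripts are used here. Cells with over 1000 transcripts and at most 2% Kcnq1ot1 were kept, and no doublet caller was run. More MCs passed these limits here than the study states for the same limits, for a reason not found. The study also set aside a small subset with macrophage features, which was kept here. Levels are transcripts per 10,000 outside genes named Gm plus a digit. The number after the genotype in a title was taken as the mouse. Transcripts were summed per mouse, genes with at least 10 in at least 3 mice were normalized by TMM (own code), and log2 (transcripts per 1000000 + 1) was compared with limma 3.58.1 (R 4.3.3, trend, Benjamini-Hochberg at 0.05). The planned edgeR quasi-likelihood test was not run, since the deposited values are corrected transcripts and were not classed as counts here. The recovered UMIs were also compared with limma only. The fit was tested on simulated data in which all genes shared the same dispersion. Class II genes differed widely between mice, so the simulation does not measure the power of the fit for them. Members and lists were chosen with earlier results of these data known, pathway genes were named as the 4 highest means in MCs plus any that passed the test, and single genes or cells were also named after their values were seen. Promoters came from RefSeq and positions from GENCODE. Depth was 58 to 97 cells and 156196 to 912499 transcripts per MC library. Intervals cover counting error only. Alternatives are given in the closing section.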

Additional observations from a re-analysis of the deposited data

Results flagged for a closer look

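Within each mouse, or among the GFP+ libraries, the lowest or highest library was compared with the rest by the ratio of its gap to the whole range. Of 63 groups of libraries examined (9 genes), 13 passed the 95% limit, while chance flags about 1 in 20 groups. In class I, B2m was 8.36 per 10,000 in library 8 of Tln1ΔMC mouse 3 against 11.0 to 12.9 in the other 9, and that library held the cell of 431991 transcripts. H2-D1 was 9.06 in library 4 of Tln1ΔMC mouse 1 against 4.42 to 5.02 in the other 3. Its leading cells held 21.1 and 16.0 transcripts, without which the library stood at 7.44. Tapbp was 0.767 in GFP+ library 16 against 1.10 to 1.15.

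In class II, library 3 of WT mouse 2 was far above the rest of the mouse for H2-Aa (34.4 against 0.979 to 5.76) and H2-Ab1 (22.6 against 0.979 to 4.58). Library 10 of Tln1ΔMC mouse 3 was high for H2-Ab1 (8.41, next 3.92) and Cd74 (14.5, next 5.33). Without its largest cell that library stood at 2.51 for H2-Ab1 and 3.34 for Cd74, so 1 cell carried both. Library 2 of WT mouse 3 was high for H2-Eb1 (3.42, next 0.511) and Cd74 (6.23, next 0.358), and held 1 cell of 362.4 class II transcripts. Ciita gave 4 flags on 1 to 3 transcripts each, with 0.130 in library 14 of WT mouse 1, 0.0479 in library 3 of WT mouse 2, 0.128 in library 4 of WT mouse 3 and 0.0451 in GFP+ library 16. Causes were not tested.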

How the results depend on the processing

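No listed gene was called under any of 21 alternative fits. Over all genes the count was 0 in limma (503 at an unadjusted p of 0.05), 2 with libraries of alike unused barcodes as a block (added later), and 0 to 12 when 1 mouse was left out, with 1 call without WT mouse 1 and 12 without Tln1ΔMC mouse 1. The mouse numbers shared by the labels did not pair the mice: deviations of same-numbered mice correlated at 0.163, -0.212 and -0.266, and WT mouse 2 was nearest to Tln1ΔMC mouse 3 (0.421). With the replicate block 0 genes and 0 of the 8 listed genes were called. H2-D1 changed sign in 3 fits, B2m in 1 (without Tln1ΔMC mouse 2) and H2-Eb1 in 1 (without WT mouse 2), none of them called. The lowest unadjusted p of a listed gene was 0.00447, for H2-Ab1 without WT mouse 1, and the adjusted p of H2-Ab1 was 0.247 or higher in every fit. With Gm genes in the total, the median B2m level was 5.26 in MC and 6.74 in GFP+ libraries, and that of H2-D1 2.65 and 1.91. Averaged over cells, the class II median was 4.97 against 3.65 in GFP+ and 4.34 against 1.94 in MC libraries. With Gm genes in the total (added later), H2-D1, H2-T23 and Jak2 no longer lay below every MC library in GFP+ cells. The share of MCs with a class I UMI was 86.6% unthinned, 73.1% at 1000 UMIs and 17.7% for at least 2 UMIs, and of GFP+ cells 86.97%, 57.7% and 10.4%. For class II it was 28.9%, 17.5% and 5.32% of MCs, 12.3% at 500 UMIs, and 68.2%, 30.6% and 2.20% of GFP+ cells. MCs past the class II level limit made up 8.52%, 11.8% at 5 and 6.46% at 20 per 10,000, 5.47% without library 3 of WT mouse 2, and 0.606% with the limit of 50 transcripts. DESeq2 and edgeR were not run, although whole UMIs could be recovered, since the deposited values were not classed as counts, and the barcode set could not be fitted as a block because each mouse used both sets. At these depths Ciita gave too few transcripts to test, and Tap1 had 9 to 12 transcripts in 5 of the 6 mice.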
